A study of Homo sapiens with 6 samples.

Results

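Homologous recombination repairs broken DNA by copying an intact sister strand, and the Fanconi anaemia pathway unhooks strands that are cross-linked to each other and hands the resulting breaks to recombination. A set of 39 human genes of these pathways was examined in A549, an established lung adenocarcinoma cell line. They were chosen by name, with earlier results of these data known. The set takes in the checkpoint kinases that respond to stalled forks and the mismatch recognition gene MSH6. Of the 39 genes, 35 had a probe set that carried their symbol alone, out of 18132 genes measured in this way. BRCA2, FANCA, FANCD2 and RBBP8 are not analysed here.

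The study silenced the long noncoding RNA LINC00525 and measured the transcriptome afterwards. The control group had 3 arrays of cells given a scrambled sequence, and the knockdown group had 3 arrays of cells in which LINC00525 was lowered. The labels disagree on the reagent, which is "sh" in the sample titles and siRNA in the treatment field. They also disagree on the target, since the genotype given for knockdown replicate 2 is LINC00526 and for replicate 3 LINC00527; the titles were followed here. Nothing in the labels says whether replicates were separate cultures, so the p-values measure the spread between these arrays, which may be technical.

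All values are log2 array signals. LINC00525 was at 3.86, 3.74 and 3.97 on the control arrays and at 3.67, 3.45 and 3.54 on the knockdown arrays, a fall of 0.30 ± 0.075 (SE, limma adjusted p = 0.0372, exact 2-sided permutation p = 0.1, the smallest that 3 against 3 arrays allow). The groups did not overlap, but the signal lay inside the range of the Tag controls, 17 probe sets for synthetic sequences that serve here as a background (2.27 to 4.60). The upper end of this range is 1 probe set, the only one above the LINC00525 control mean of 3.86. The next highest was at 3.70, above the LINC00525 knockdown mean of 3.55, and the median Tag probe set was at 2.78. Of the epithelial markers, KRT8, KRT18, KRT19 and CDH1 had control means of 12.02, 12.45, 9.28 and 8.54, and EPCAM was at 5.43. The leukocyte genes PTPRC (2.32) and LYZ (2.42) were in the Tag range. So were the fibroblast genes COL1A1 (4.35), COL3A1 (3.09) and DCN (3.03) and the endothelial gene VWF (4.56). CD14 (6.25) lay above the range, and CD3E (4.64) and the endothelial gene PECAM1 (4.65) lay just above it.

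The recombination and Fanconi genes were lower on the knockdown arrays by small amounts. Of the 35 measured genes 19 fell, 0 rose and 16 did not pass the threshold (limma adjusted p under 0.05 over all 18132 genes), where 6.83% of all genes fell and 5.77% rose. At an unadjusted p under 0.05, 24 of the 35 were lower and 1 was higher, where 2805 of all 18132 genes were lower and 2009 higher. The median log2 change was -0.18 for the 35 genes and -0.01 for all genes, and the range of the 35 ran from -0.41 to 0.10. All 3 knockdown arrays lay below all 3 control arrays for 24 of the 35, against 17.9% of all genes. Dim genes were rare in the set: 1 of the 35 had a control mean under the highest Tag probe set, against 6679 of all 18132. With genes under the median signal left out, 23 of 33 measured genes fell, and so did 18.3% of the 10289 genes kept. The mean signal over the 35 genes was 7.20 to 7.25 on the control arrays and 7.02 to 7.04 on the knockdown arrays, so every knockdown array was below every control array. In bulk RNA a smaller share of cells that express a gene and less of its RNA per cell cannot be told apart.

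In each fit with 1 array left out fewer genes fell, among the 35 and among all genes. The median log2 change of the 35 was -0.20 to -0.17 in these fits, against -0.18 with all 6 arrays. The count of falls among the 35 was 8, 9 and 7 without control replicates 1, 2 and 3. It was 15, 9 and 13 without knockdown replicates 1, 2 and 3. Of all genes, 2.60% to 4.37% fell in these fits. EXO1, RAD51C, TOPBP1, RMI1, FANCB, FANCC and EME1 kept their calls whichever array was left out. The bacterial hybridization controls were higher on the knockdown arrays by 0.28 (9.22 ± 0.11 against 9.50 ± 0.045, SD, n = 3 each). With arrays scaled to them, the median of all genes moved to -0.30 and that of the 35 to -0.47, and 34 of the 35 fell among 83.2% of all genes. A change given below thus compares a gene with the bulk of the genes on the same array.

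**Figure D1:**
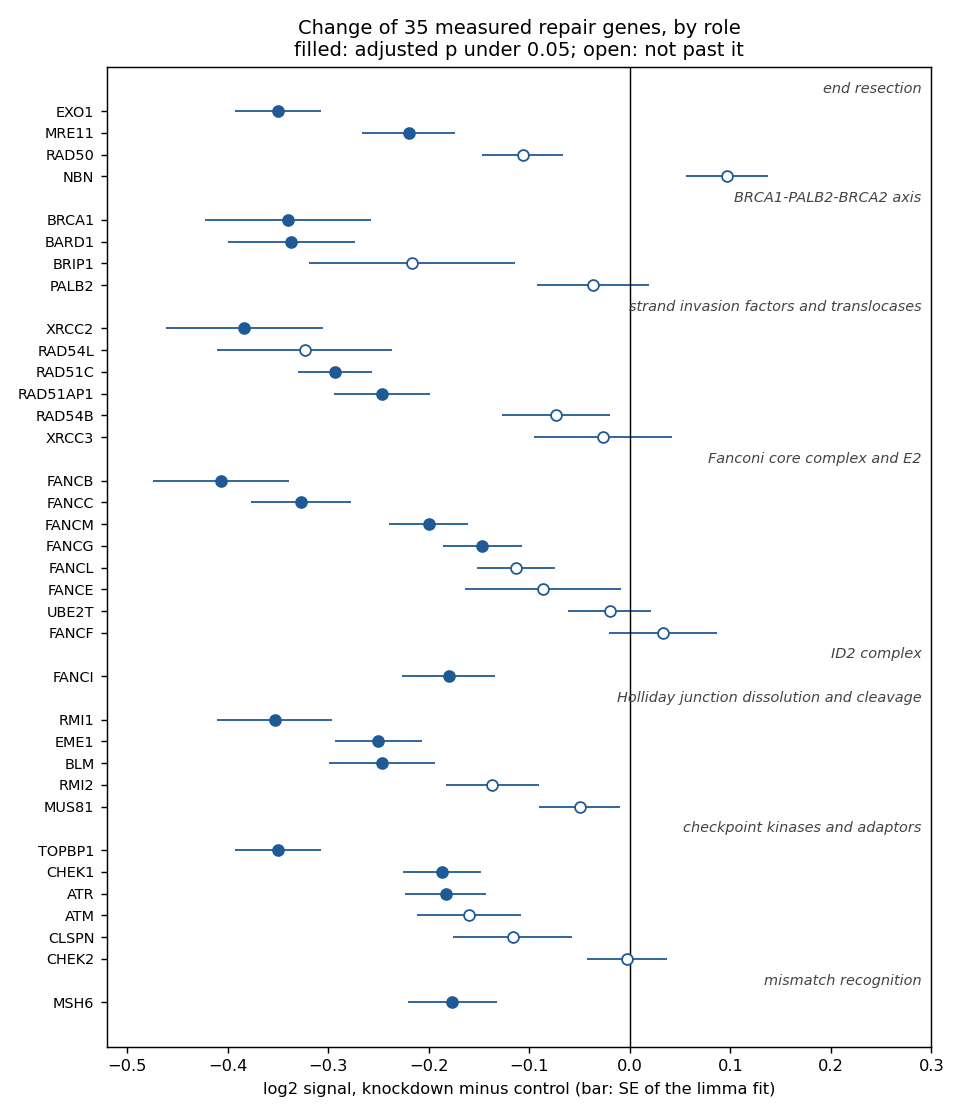
Log2 change (knockdown minus control, x axis) of each of the 35 measured genes with its standard error, in blocks by role. Filled points passed the threshold. Of the 35 points 33 lie below 0, where 10227 of all 18132 genes do, and FANCF and NBN lie above 0.

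End resection, which trims a break back to single-stranded DNA, had 4 measured genes, of which EXO1 and MRE11 fell. EXO1, the exonuclease of long-range resection, was at 7.20, 7.14 and 7.14 on the control arrays and at 6.78, 6.78 and 6.87 on the knockdown arrays. The lowest control array was 0.27 above the highest knockdown array. The fall was 1.27-fold (log2 -0.35 ± 0.043 SE, limma adjusted p = 0.00246). MRE11, the nuclease that opens resection, was at 7.17, 7.20 and 7.22 against 7.04, 6.99 and 6.90, again without overlap, a fall of 0.22 ± 0.046 (adjusted p = 0.0214). Its call was lost on leaving out any array except knockdown replicate 1 (adjusted p of 0.0261 to 0.0743 over the 6 omissions) and with its probe sets averaged (-0.11, adjusted p = 0.0629). A second MRE11 probe set, with a control mean of 6.07, fell by 0.23 (limma adjusted p = 0.0326 over all probe sets). The other 3 had control means of 4.11, 3.07 and 2.90, in the Tag range, and changes of -0.03, -0.02 and -0.05.

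MRE11 works as a complex with the ATPase RAD50 and with NBN, the subunit that recruits ATM, and neither partner passed the test. RAD50 was at 8.01, 7.93 and 8.02 against 7.90, 7.87 and 7.87 (log2 -0.11 ± 0.040, adjusted p = 0.136), and with its probe sets averaged it passed (-0.15, adjusted p = 0.0177). NBN was at 8.99, 9.08 and 9.06 against 9.14, 9.17 and 9.11 (log2 0.10 ± 0.041, adjusted p = 0.184). All 3 NBN knockdown arrays were above the control arrays, and all 5 NBN probe sets had changes above 0 (0.05 to 0.14), none past the threshold. Scaled to the hybridization controls NBN was at -0.18, so its sign is relative to other genes.

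The RNA signals of both subunits of the BRCA1 ubiquitin ligase were lower. BRCA1, which promotes resection and brings in the recombination machinery, was at 7.82, 7.82 and 8.08 on the control arrays and at 7.68, 7.49 and 7.53 on the knockdown arrays. Control replicate 3 stood highest, and the groups did not overlap. The fall was 1.27-fold (log2 -0.34 ± 0.083 SE, limma adjusted p = 0.0354). The probe set used for it is of the _x_at kind, which can bind related transcripts. Without such probe sets BRCA1 was at -0.15 (adjusted p = 0.12), and of the 6 fits with 1 array omitted BRCA1 passed only in the one without knockdown replicate 1 (adjusted p of 0.0389 to 0.112). All 5 BRCA1 probe sets had changes below 0, from -0.35 to -0.15, and 2 of them passed, the one used here and a dim one with a control mean of 3.38.

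BARD1, the obligate partner of BRCA1 in the ligase, was at 6.78, 6.63 and 6.75 against 6.46, 6.27 and 6.42. The groups were 0.17 apart at their nearest arrays, and the fall was 1.26-fold (log2 -0.34 ± 0.063 SE, adjusted p = 0.0146), lost without control replicate 1 or 3 (adjusted p of 0.0229 to 0.0579 over the 6 omissions). PALB2, which links BRCA1 to BRCA2, did not pass at 7.39 ± 0.061 against 7.35 ± 0.087 (SD, n = 3 each). The helicase BRIP1 had a control signal of 4.27, under the highest Tag probe set, and the probe set used for it did not pass (log2 -0.22 ± 0.10, adjusted p = 0.228). Its other probe set, dimmer still at 3.50, fell by 0.35 (limma adjusted p = 0.0185 over all probe sets), and with both averaged BRIP1 passed (-0.28, adjusted p = 0.0158).

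Of 6 genes for strand invasion and its remodelling, 3 fell and 3 did not pass. RAD51C, a recombination mediator, was at 9.37, 9.36 and 9.38 on the control arrays and at 9.05, 9.07 and 9.11 on the knockdown arrays. The nearest arrays of the groups were 0.25 apart, and the fall was 0.29 ± 0.036 (1.23-fold, adjusted p = 0.00268). Its probe sets at control means of 9.25 and 8.08 fell by 0.32 and 0.29, and the 1 in the Tag range (3.14) gave -0.21 without passing. XRCC2, another mediator, was at 5.88, 5.82 and 6.05 against 5.57, 5.40 and 5.63, a fall of 1.30-fold (log2 -0.38 ± 0.078 SE, adjusted p = 0.0193). Both XRCC2 probe sets carry _x_at, the dimmer at -0.14 did not pass, and omitting control replicate 1, control replicate 3 or knockdown replicate 2 ended the call (0.0287 to 0.0583 over the 6 omissions).

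RAD51AP1, which stimulates strand invasion, was at 7.18, 7.26 and 7.32 against 7.03, 6.96 and 7.03 (log2 -0.25 ± 0.048 SE, adjusted p = 0.0165). That probe set gave the smallest of 4 falls. The others fell by 0.26, 0.40 and 0.49, each past the threshold over all probe sets, and the probe set at -0.40 had a higher control mean (7.29) than the one used (7.25). For the probe set used, omitting control replicate 2, control replicate 3 or knockdown replicate 2 ended the call (0.0205 to 0.0626 over the 6 omissions). The mediator XRCC3 was at 5.23 ± 0.098 against 5.20 ± 0.11 (SD, n = 3 each).

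The DNA translocases RAD54L and RAD54B, which act around strand invasion, did not pass. RAD54L was at 5.91, 5.90 and 6.07 against 5.77, 5.69 and 5.45. Its groups did not overlap and its change (-0.32 ± 0.087) was as large as several that passed, but the SD of its knockdown arrays was 0.17 and its adjusted p was 0.0502. RAD54L passed with probe sets averaged (adjusted p = 0.0365), without _s_at and _x_at probe sets (0.0493) and with dim genes left out of the fit (0.0199). It also passed scaled to hybridization or poly-A controls, where 83.2% and 46.3% of all genes fell. RAD54L did not pass after cyclic loess (adjusted p = 0.0663) or with a replicate block (0.106). With 1 array omitted it passed only without knockdown replicate 1 (adjusted p of 0.0416 to 0.151 over the 6 omissions). RAD54B was at 7.71 ± 0.023 against 7.64 ± 0.096 (SD, n = 3 each, adjusted p = 0.445).

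**Figure D2:**
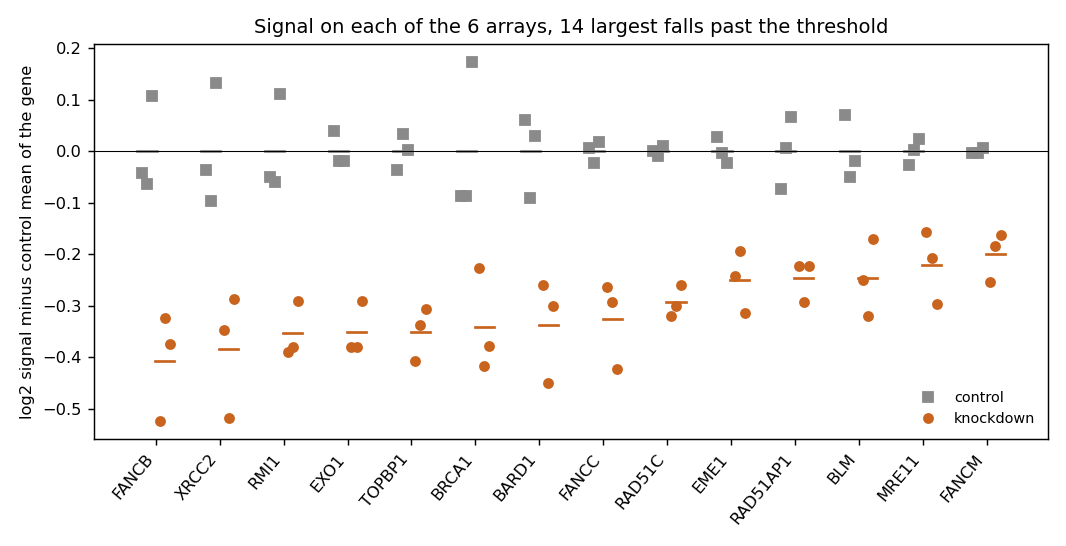
Log2 signal of the 14 largest falls past the threshold on each of the 6 arrays, minus the control mean of the gene (y axis), with squares for control arrays, circles for knockdown arrays and lines for group means. In each of the 14 genes every knockdown array lies below every control array.

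The Fanconi core complex is the ubiquitin ligase that marks the FANCD2-FANCI clamp at a cross-link. Of its 7 measured subunits and the conjugating enzyme UBE2T, 4 fell and 4 did not pass. FANCB, a subunit of the catalytic module, had the largest fall of all 35 genes. It was at 6.23, 6.21 and 6.38 on the control arrays and at 5.75, 5.95 and 5.90 on the knockdown arrays, 1.33-fold lower (log2 -0.41 ± 0.067 SE, adjusted p = 0.00875). FANCL, the catalytic subunit of the same module, did not pass (9.10 ± 0.038 against 8.99 ± 0.026, SD, n = 3 each, adjusted p = 0.106), and UBE2T, which works with it, was at 10.09 ± 0.050 against 10.07 ± 0.025.

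FANCC, FANCE and FANCF form the part of the complex that holds the substrate. FANCC was at 5.73, 5.70 and 5.74 against 5.46, 5.43 and 5.30, 1.25-fold lower (log2 -0.33 ± 0.050 SE, adjusted p = 0.00623). A second FANCC probe set fell by 0.33 and the dimmest gave -0.20 without passing. FANCE (log2 -0.09 ± 0.078) and FANCF (0.03 ± 0.054) did not pass, and the probe sets of each pointed both ways: FANCE ranged from -0.09 to 0.05 and FANCF from -0.11 to 0.03.

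FANCM, the translocase that anchors the complex on DNA, was at 5.26, 5.26 and 5.27 against 5.01, 5.08 and 5.10. The groups were 0.16 apart at their nearest arrays, and the fall was 0.20 ± 0.039 (SE, adjusted p = 0.017). This call was lost without any 1 of the control arrays (adjusted p of 0.0305 to 0.0609 over the 6 omissions) and with the probe sets averaged (-0.18, adjusted p = 0.0662). FANCG, a core subunit, fell by 0.15 ± 0.039 (adjusted p = 0.0492) and lost its call on leaving out any array (0.0764 to 0.136). FANCI, the partner of FANCD2 in the clamp, fell by 0.18 ± 0.046 (adjusted p = 0.0433), and 1 of its 3 probe sets passed over all probe sets (-0.27). The FANCI call held only without knockdown replicate 3 (0.0341 to 0.128 over the 6 omissions).

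Recombination intermediates are taken apart either by the BLM helicase with its RMI partners or by nucleases such as MUS81-EME1. RMI1, the scaffold of the BLM complex, was at 7.86, 7.85 and 8.02 on the control arrays and at 7.52, 7.53 and 7.62 on the knockdown arrays. The fall was 1.28-fold (log2 -0.35 ± 0.057 SE, adjusted p = 0.00786), and all 4 RMI1 probe sets fell, by 0.21 to 0.49. BLM, the helicase itself, was at 7.29, 7.17 and 7.20 against 6.97, 6.90 and 7.05 (log2 -0.25 ± 0.053 SE, adjusted p = 0.0233). With 1 array omitted BLM passed only where that was knockdown replicate 3 (0.0257 to 0.0742 over the 6 omissions). RMI2, the small partner of RMI1, was 0.14 lower without overlap of the groups but did not pass (adjusted p = 0.102).

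The nuclease pair differed in what passed. EME1, the regulatory subunit, was at 7.77, 7.74 and 7.72 against 7.50, 7.55 and 7.43, 1.19-fold lower (log2 -0.25 ± 0.043 SE, adjusted p = 0.0107). MUS81, the catalytic subunit, was at 7.24 ± 0.046 against 7.19 ± 0.025 (SD, n = 3 each, adjusted p = 0.493). The difference between their changes was not tested.

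Among checkpoint genes, the branch that answers to single-stranded DNA at stalled forks held the 3 falls. TOPBP1, the activator of the ATR kinase, was at 7.71, 7.78 and 7.75 on the control arrays and at 7.34, 7.41 and 7.44 on the knockdown arrays. The fall was 1.27-fold (log2 -0.35 ± 0.043 SE, adjusted p = 0.00244), and its other probe set, without the suffix _s_at, fell by 0.34. ATR itself fell by 0.18 ± 0.041 (7.11 ± 0.035 to 6.92 ± 0.040, SD, n = 3 each, limma adjusted p = 0.0255), and CHEK1, the kinase it activates, by 0.19 ± 0.039 (adjusted p = 0.0209). Of 6 CHEK1 probe sets 5 fell, by 0.19 to 0.30.

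The ATR call was lost on leaving out any array (adjusted p of 0.0501 to 0.0937), and CHEK1 then passed only without knockdown replicate 1 (0.0414 to 0.0799). CLSPN, the adaptor between ATR and CHEK1, did not pass (log2 -0.12 ± 0.060). ATM and CHEK2 form the arm that answers to double-strand breaks. ATM was 0.16 ± 0.052 lower at its brightest probe set (adjusted p = 0.0912), with its other probe sets at -0.11 to 0.04. CHEK2 was at 6.44 on both groups' means (log2 change -0.00 ± 0.040), but both CHEK2 probe sets carry _x_at. Whether the ATR and ATM arms differ was not tested. MSH6, which recognises mismatches, fell by 0.18 ± 0.044 (adjusted p = 0.0397), a call lost on leaving out any array (0.0618 to 0.12) and with its probe sets averaged (-0.11, adjusted p = 0.0839). Its second probe set was at -0.04.

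Probe sets of the same gene mostly pointed the same way. The 35 genes had 85 probe sets, of which 34 fell and 0 rose, where 5.25% of all probe sets fell and 4.64% rose (limma adjusted p under 0.05 over all 49372 probe sets). For the 12 genes that fell and had more than 1 probe set, all 31 further probe sets had changes below 0, and 17 of the 31 passed. Of these 31, 8 had control means under the highest Tag probe set. Over all genes, 10227 of 18132 changes were below 0. In 4 of the 12 genes only 1 probe set or none passed over all probe sets. Neither probe set of MSH6 passed there (limma adjusted p = 0.054 and 0.612), nor did the only one of FANCG (0.0716). Probe sets of a gene read the same RNA samples, so they are not replicates of the comparison.

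**Figure D3:**
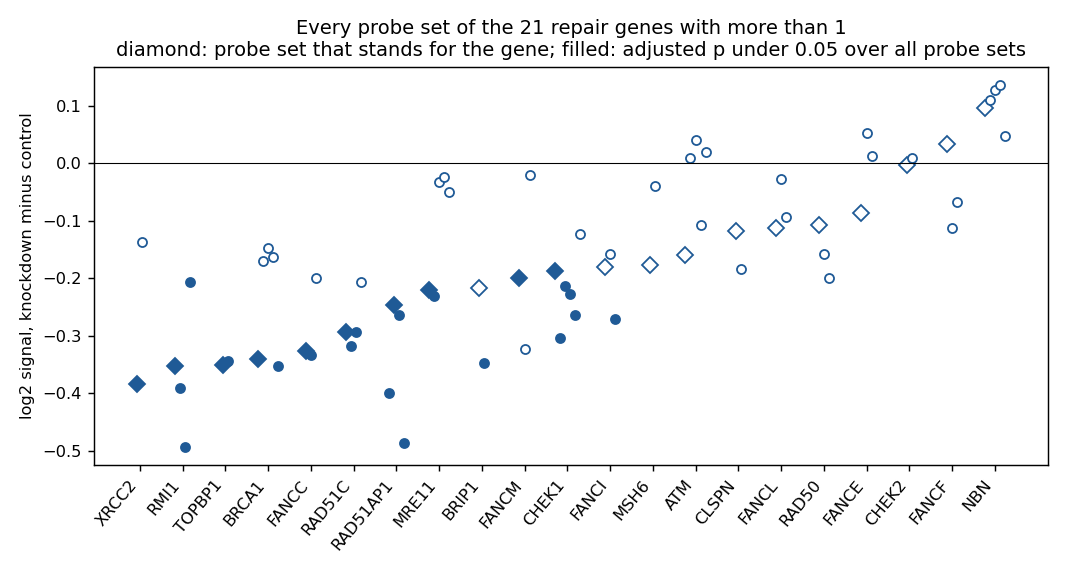
Log2 change (y axis) at every probe set of the 21 genes with more than 1, ordered by the change of the probe set that stands for the gene (diamond). RMI1, TOPBP1 and RAD51AP1 have only filled points, which passed over all probe sets, while ATM, FANCE, FANCF and CHEK2 have points on both sides of 0.

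Many genes of this kind are known to be induced by E2F factors as cells enter S phase, so the promoters of the members were read for E2F words. RefSeq promoter windows (GRCh38.p14, 250 bases before to 50 after the start base) were found for 31 of the 35 genes. The words TTTCCCGC, TTTGGCGC, TTTCGCGC and TTTGCCGC were searched on both strands, and a gene counted if any of its windows held a word. At least 1 of them was in 6 of the 18 genes that fell and had a window (33.3%), in 1 of 13 that did not pass (7.69%) and in 5.53% of the 14425 tested genes with a window. The genes were FANCC, RMI1, EXO1, TOPBP1, XRCC2 and MSH6 among those that fell, and CLSPN among the rest. Another window of RMI1 held no E2F word. The word of the cell-cycle homology region, TTTGAA, was in 1 of 18, 3 of 13 and 15.9%, and CCAAT was in 8 of 18, 10 of 13 and 42.4%. None of these words contains another, though neighbouring ones can share end letters. Differences between these shares were not tested, and a word is a match of letters and shows no binding.

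The stretches below are shown because they hold an E2F word, and capitals mark the E2F words alone. Each is read 5′ to 3′ on the strand of the gene and runs up to the start base, or to the end of a word that goes past it. FANCC has 2 words, and its stretch lies at chr9:95317710-95317889 on the minus strand. RMI1 lies at chr9:83980705-83980804 on the plus strand, EXO1 at chr1:241848104-241848215 (plus), TOPBP1 at chr3:133661941-133662041 (minus), XRCC2 at chr7:152676113-152676241 (minus), MSH6 at chr2:47783045-47783155 (plus) and CLSPN at chr1:35769976-35770078 (minus).
FANCC: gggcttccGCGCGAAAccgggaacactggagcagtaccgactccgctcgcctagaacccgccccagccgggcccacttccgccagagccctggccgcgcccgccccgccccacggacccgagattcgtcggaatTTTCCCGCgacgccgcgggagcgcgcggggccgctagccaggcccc
RMI1: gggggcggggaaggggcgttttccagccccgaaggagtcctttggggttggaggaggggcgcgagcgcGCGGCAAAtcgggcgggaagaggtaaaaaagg
EXO1: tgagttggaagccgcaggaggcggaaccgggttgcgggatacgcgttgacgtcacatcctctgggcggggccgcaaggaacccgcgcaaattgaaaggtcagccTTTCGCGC
TOPBP1: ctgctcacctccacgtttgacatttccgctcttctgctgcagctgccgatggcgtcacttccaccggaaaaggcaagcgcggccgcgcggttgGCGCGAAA
XRCC2: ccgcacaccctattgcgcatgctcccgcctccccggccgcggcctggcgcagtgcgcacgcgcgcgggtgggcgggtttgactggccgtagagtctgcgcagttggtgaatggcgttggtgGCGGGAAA
MSH6: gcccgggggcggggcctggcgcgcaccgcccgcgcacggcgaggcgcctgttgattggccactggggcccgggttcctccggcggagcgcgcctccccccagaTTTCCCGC
CLSPN: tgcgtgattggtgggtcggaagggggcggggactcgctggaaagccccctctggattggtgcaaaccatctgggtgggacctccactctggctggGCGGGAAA

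In EXO1, MSH6, TOPBP1 and CLSPN the first letter of the word lay within 7 bases of the start base, in XRCC2 21 bases after it, in RMI1 32 bases before it and in FANCC 172 and 46 bases before it. The 6 genes with a word that fell had log2 changes of -0.38 (XRCC2), -0.35 (RMI1), -0.35 (EXO1), -0.35 (TOPBP1), -0.33 (FANCC) and -0.18 (MSH6). FANCB and BRCA1, among the other large falls, held no E2F word in their windows.

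A wider list of the same pathways, which leaves out the 39 genes, also held falls. Of its 58 measured recombination and Fanconi genes 16 fell and 0 rose (limma adjusted p under 0.05, with 23 lower and 2 higher at an unadjusted p under 0.05), and the median log2 change was -0.10. At the unadjusted threshold 2805 of all 18132 genes were lower and 2009 higher. FIGNL1, an ATPase that regulates recombination, fell by 0.47 ± 0.038 (SE, adjusted p = 0.000334). DNA2, the nuclease that resects in parallel to EXO1, fell by 0.32, CENPS, a partner of FANCM, by 0.31, and the junction resolvase GEN1 by 0.28. Of 14 checkpoint genes beyond the set 5 fell and 0 rose (10 and 0 unadjusted), at a median of -0.16. CDC25A, the phosphatase that CHEK1 targets, fell by 0.33, TTI1, a co-chaperone subunit that stabilises kinases such as ATM and ATR, by 0.25, and the fork protection partners TIMELESS and TIPIN fell by 0.25 and 0.24.

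Other routes of repair held falls too. Of 11 measured genes of non-homologous end joining 4 fell and 0 rose (6 and 0 unadjusted), at a median of -0.15: the nuclease DCLRE1C (Artemis) by 0.43 ± 0.046 (SE, limma adjusted p = 0.00145), the ligation factor NHEJ1 by 0.29, the kinase PRKDC by 0.24 and the Ku subunit XRCC5 by 0.18. Of 4 measured mismatch repair genes PMS2 fell (-0.32) and 0 rose (1 and 0 unadjusted), with a median of -0.01. Of 17 measured genes of base and nucleotide excision repair 3 fell and 0 rose (5 and 0 unadjusted), at a median of -0.07, namely UNG (-0.27), ERCC8 (-0.23) and DDB1 (-0.16). The share of genes that fell was 54.3% among the 35 measured genes of the set, 27.6% in the wider recombination list and 35.7% in the checkpoint list. It was 36.4% in end joining, 25.0% in mismatch repair and 17.6% in excision repair. Among the proliferation markers described below it was 83.3%, and among all genes 6.83%. Differences between these lists were not tested, and the lists were drawn up with earlier results of these data known.

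**Figure D4:**
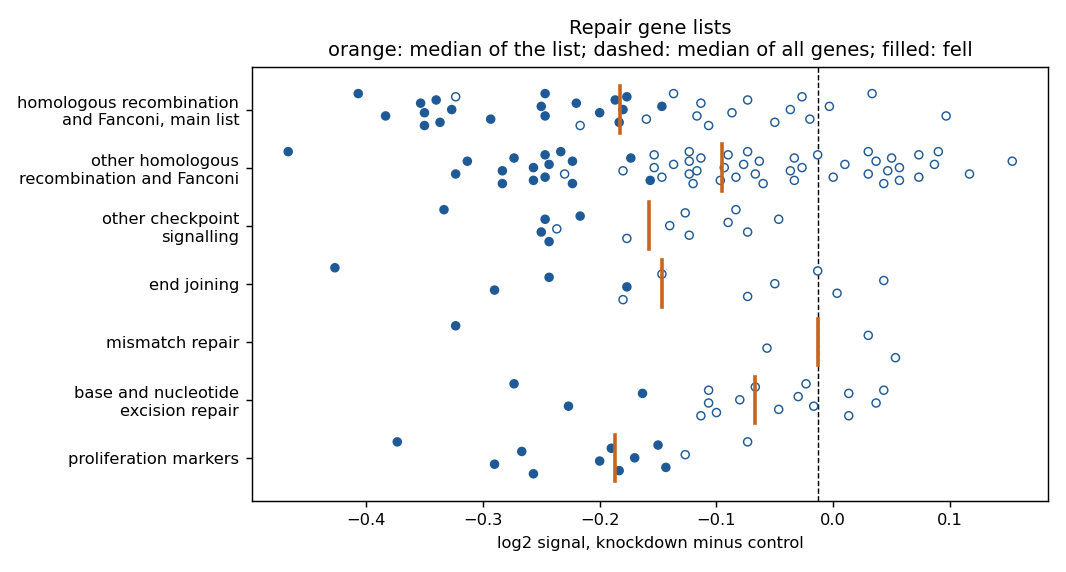
Log2 change (x axis) of each measured gene in the set and in 6 further lists, filled where it fell past the threshold, with the list median in orange and the median of all genes dashed. The medians run from -0.19 for proliferation markers and -0.18 for the set to -0.01 for mismatch repair.

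Markers of proliferation moved with these genes. Of 12 such markers 10 fell and 0 rose (11 and 0 unadjusted, limma), at a median log2 change of -0.19, close to the -0.18 of the repair genes. MCM2, a subunit of the replicative helicase, fell by 0.37 ± 0.048 (SE, adjusted p = 0.00312), and MKI67, the Ki-67 antigen of cycling cells, by 0.29 ± 0.042. The polo kinase PLK1 fell by 0.27 and CCNB1, cyclin B1, by 0.26, whereas CCNA2 (-0.13) and BUB1 (-0.07) did not pass. The mean over the 12 was 9.37 to 9.40 on the control arrays and 9.16 to 9.21 on the knockdown arrays. Their part in the falls of the repair genes was not tested. CDKN1A rose from 9.54 ± 0.049 to 10.09 ± 0.090 on the same arrays (SD, n = 3 each, 1.47-fold, limma adjusted p = 0.00089).

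Signs of RNA quality moved little. The difference between the 3′ and 5′ control probe sets of GAPDH was -0.14 to -0.11 on the control arrays and -0.16 to -0.15 on the knockdown arrays, and that of ACTB was 0.38 to 0.45 and 0.41 to 0.46. Of 5 epithelial markers KRT19 rose by 0.29 (limma adjusted p = 0.00409), KRT8 fell by 0.15 (adjusted p = 0.0474) and the other 3 did not pass; their part in the falls of the repair genes was not tested. Of the non-epithelial markers 0 of 4 leukocyte genes and 0 of 5 fibroblast and endothelial genes changed (limma adjusted p under 0.05, with 0 and 1 higher and 0 lower at an unadjusted p under 0.05). The mean over the leukocyte genes was 3.89 to 3.94 on the control and 3.86 to 3.89 on the knockdown arrays, and that over the fibroblast and endothelial genes was 3.91 to 3.98 and 3.86 to 4.02.

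**Figure D5:**
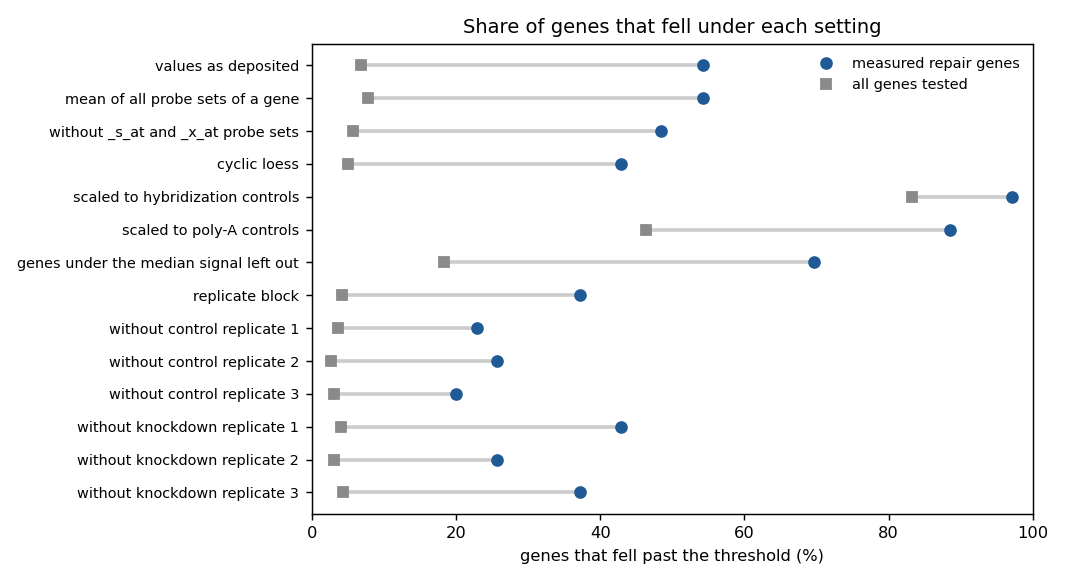
Share of the measured repair genes (circles) and of all genes tested (squares) that fell past the threshold (x axis, percent) under each processing setting. The repair genes lie above all genes in each of the 14 settings shown, by the least under scaling to hybridization controls, where 83.2% of all genes fell.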

How the data were processed

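The authors deposited log2 array signals, 49372 per array. RMA, which includes quantile normalization and so removes a change shared by most genes, is the only tool named in the submitters' processing notes. Its version and the genome build were not given in the sources used here. Probe sets with several symbols (1832) or none (2546) were left out of the gene fit. Of a gene's remaining probe sets, the one with the highest mean over the 6 arrays stood for it. Symbols were updated through the GRCh38.p14 gene table. The 3 knockdown arrays were set against the 3 controls by limma (version 3.58.1, R 4.3.3; moderated 2-sided test, no covariate), with Benjamini-Hochberg adjustment over 18132 genes, and the pipeline was tested on simulated data. Errors are standard errors of the fit or standard deviations over 3 arrays, and the number of arrays limits the precision. Same-numbered arrays did not deviate together (correlations of 0.092, 0.058 and -0.01), so they were not paired. Promoter sequences come from RefSeq (GRCh38.p14).

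The genes, the lists and the motif words were chosen with earlier results of these data known. Every gene of the set is named, values on each array are given for the 14 largest falls past the threshold, and at most 4 of the largest falls are named in each further list (RAD50, NBN and RAD54L got values on each array after these were seen). Alternatives were averaging probe sets, leaving out _s_at and _x_at probe sets, cyclic loess, scaling to hybridization or poly-A controls, leaving out dim genes, a replicate block and leaving out each array. Figures were drawn with matplotlib 3.10.9.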

Additional observations from a re-analysis of the deposited data

How the results depend on the processing

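The count of 19 falls and 0 rises stayed within 1.5 times when probe sets were averaged (19, of which 16 were the same genes), without _s_at and _x_at probe sets (16 of 33 measured), after cyclic loess (15), with genes under the median signal left out (23 of 33) and with a replicate block (13, all of them among the 19). Under the block, MRE11, BRCA1, FANCG, FANCI, CHEK1 and MSH6 lost their calls. It was 34 scaled to hybridization controls and 31 scaled to poly-A controls, where 83.2% and 46.3% of all genes fell. Leaving out 1 array gave 7 to 15. No setting gave a rise. Over all genes, 1239 fell and 1046 rose, against 909 and 1290 after cyclic loess. The number of all genes that fell was 747 with the replicate block, 15085 and 8397 scaled to hybridization and poly-A controls, and 472 to 792 with 1 array left out. With dim genes left out it was 1886 of the 10289 genes kept (18.3%). It was 1425 (7.86%) with probe sets averaged and 953 of 16703 (5.71%) without _s_at and _x_at probe sets.

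Changes turned sign only in genes that had not passed. These were FANCF (-0.049) and CHEK2 (0.0033) with probe sets averaged, FANCE (0.053) without _s_at and _x_at probe sets, UBE2T (0.0098) and CHEK2 (0.0196) after cyclic loess, NBN (-0.18) and FANCF (-0.25, adjusted p = 0.0136) scaled to hybridization controls, and NBN (-0.044) and FANCF (-0.11) scaled to poly-A controls. With 1 array left out the ranges were -0.0433 to 0.0067 for UBE2T, -0.08 to 0.0283 for XRCC3, -0.0283 to 0.0217 for CHEK2 and -0.0017 to 0.0833 for FANCF. After cyclic loess BRCA1, FANCG, FANCI and MSH6 lost their calls. Of 451 values of single genes under an alternative, 332 kept direction and call, 70 lost the call, 35 gained it and 14 turned sign. The cause was not tested. Signal over background limits BRIP1 and the dim probe sets named above.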
